A study of Homo sapiens with 9 samples.

Results

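Gene expression was compared across protein-coding genes between HEK293 Freestyle cells starved of zinc and cells left in untreated medium. HEK293 is an established human embryonic kidney line, here in a suspension-adapted form. Before plating, the cells had been kept for 18 h or longer in Freestyle medium at 1000000 cells/mL, rinsed 3 times in PBS and concentrated to 4000000 cells/mL. They were then cultured for 36 h in untreated Freestyle medium (full), in Freestyle medium depleted of Zn(II) (depleted) or in that depleted medium after Zn(II) had been added back (repleted). Each medium had 3 libraries of polyadenylated RNA, which the labels call a biological triplicate. All 9 share 1 cell line, the same pre-culture and the same wash. The labels also name a rinse with EDTA, a chelator, without saying clearly which item was rinsed. How the medium was depleted, and what the step removed besides zinc, is not given in the sources used here, so the repleted level is given beside the largest changes. The genes were chosen by 1 rule, at least 1 RPKM in 3 or more of the 9 libraries. RPKM is the number of reads on a gene relative to its length and to the depth of the library. The rule kept 15774 of 57766 genes in the table, among them 12892 of 20320 protein-coding genes.

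Zinc is a structural or catalytic ion in many transcription factors, hydrolases, ubiquitin ligases and polymerases. Cells buffer it with metallothioneins, move it with transporters of the SLC30 and SLC39 families, and sense it with the factor MTF1, which binds metal response elements in promoters. Shortage of a nutrient can also engage general programmes, such as the integrated stress response, in which phosphorylation of the initiation factor eIF2 favours translation of ATF4, and the lysosomal programme of TFEB and TFE3.

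In the sentences below, RPKM values are means ± SD over 3 libraries unless they are given library by library. Each log2 change is depleted against full, taken from log2(RPKM + 1), so that changes of weakly expressed genes come out smaller than their ratio, and each SE is that of the log2 change. A gene is said to have risen or fallen when limma's moderated test gave a Benjamini-Hochberg adjusted p below 0.05 over all 15774 genes. RPKM is relative to the library total, so fewer transcripts per cell, fewer cells that carry them and a change in total RNA cannot be told apart.

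The metallothionein MT2A, a zinc buffer whose gene follows zinc, had 188, 201 and 184 RPKM in full libraries 1 to 3. It had 6.57, 5.72 and 7.08 RPKM in depleted libraries, below every other library, and 93.6, 90.1 and 96.7 after repletion. Of 9 listed markers of HEK293 traits 8 were found in the table, and all 8 passed the filter on low values. Between the media 2 rose and 5 fell, where 31.7% and 34.7% of all protein-coding genes did so. VIM and CDH2 rose from 577 ± 6.12 to 665 ± 11.3 RPKM and from 37.3 ± 0.877 to 47.5 ± 2.33 RPKM, and the keratins KRT8 and KRT18 fell from 135 ± 3.14 to 90.4 ± 0.235 RPKM and from 77.4 ± 1.49 to 59.2 ± 1.45 RPKM. The others were low: EPCAM fell from a mean of 7.89 to 4.05 RPKM, the kidney lineage factors PAX2 and LHX1 from 3.29 to 0.6 and from 2.88 to 1.11, and NEFM had 3.9 and 2.8, which did not pass the test. PAX2 lay below 1 RPKM in every depleted library, so it could only be counted as a fall. Of 17 listed markers of other lineages 16 were found in the table, and 3 of these passed the filter. COL1A1 fell from 18.2 ± 1.67 to 8.39 ± 1.92 RPKM, and GFAP and DES had means of 0.797 to 1.25 RPKM and did not pass the test. Of the other 13, HBB, INS, SFTPC and UMOD were listed at 0 in all 9 libraries. The part of these markers in the results below was not tested. The estimated depth was 16900000 to 23300000 reads per library. Of 16 genes often used as references, 4 rose and 8 fell, 25% and 50%. TBP was highest (log2 0.77), and the calls of ACTB and PPIA were lost after median centring.

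Most protein-coding genes differed between the media, by small amounts. Of the 12892 tested, 4090 rose and 4472 fell, 31.7% and 34.7%, together 66.4%, against 60.9% of genes of all classes (29.8% higher and 31.2% lower). After median centring 4515 protein-coding genes rose and 4099 fell, so which direction was more frequent depended on the scaling. The libraries of the groups did not overlap for 72.9% of the protein-coding genes. The median log2 change was -0.02 and the median size of a change 0.35, with the middle 50% of genes between -0.41 and 0.30. Falls reached further than rises, as the plot of log2 change against level shows. There were 959 falls and 353 rises of at least 2-fold (log2 of 1 or more in size), 7.44% and 2.74%, and 105 falls and 40 rises of at least 4-fold, 0.814% and 0.31%.

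**Figure D1:**
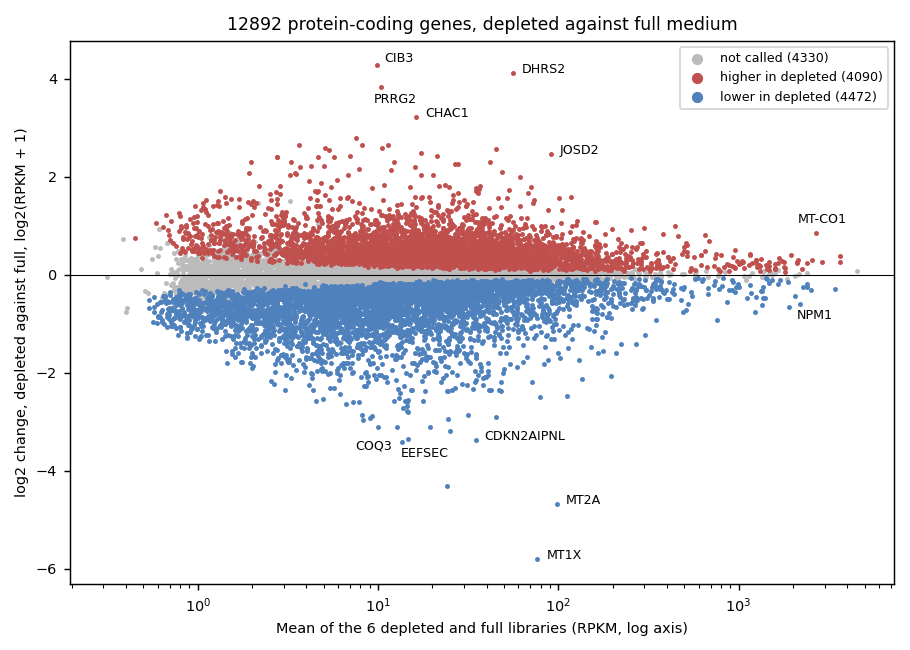
Each point is 1 of 12892 protein-coding genes, with the mean RPKM of the 6 depleted and full libraries on a log axis and the log2 change on the y axis, in red where it rose (4090), in blue where it fell (4472) and in grey where it was not called (4330). The cloud is centred near 0 and reaches further down, to MT1X at -5.80, than up, to CIB3 at 4.27.

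The direction of the calls moved with expression level. Protein-coding genes were put in 5 equal classes by mean level over all 9 libraries. The lowest class had a median of 1.89 RPKM, and in it 17.3% rose and 36% fell. The share that rose grew to 25.6%, 34.8% and 39.4% in the next classes and 41.5% in the highest, whose median was 77.6 RPKM, while the share that fell stayed between 33.2% and 37.2%. The filter was uneven for low genes. A gene on only in depleted medium needed all 3 depleted libraries to pass. A gene off only there could pass with any 3 of the full and repleted ones. How far this set the balance of the lowest class was not tested. The median size of a change was 0.44 in the lowest and 0.26 in the highest class, although the log2(RPKM + 1) scale compresses low genes. This size is over genes called or not, so it includes scatter between libraries, which was not separated from it. A log2 of -1 or below was found in 8.03% of the lowest class, 10.7% of the next and 4.5% of the highest. The direction differed less with gene length: 32.2% of the shortest class of 5 rose and 32.6% fell, against 31.2% and 35.2% of the longest. Large changes, called or not, were more frequent among short genes. A log2 of at least 1 was found in 3.88% of the shortest and 1.47% of the longest class, and of -1 or below in 8.8% and 5.12%.

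The 15 largest rises came from several families. They and the 15 largest falls below were taken among genes with at least 5 RPKM in the higher group. The rule also required that the depleted and full libraries did not overlap, so that separation was set by the choice. CIB3, of the family of calcium- and integrin-binding proteins, was listed at 0 in 2 full libraries and at 0.25 RPKM in the other one, and had 19.3, 19.9 and 20 RPKM in the depleted libraries. PRRG2, a transmembrane protein with a vitamin K-dependent Gla domain, went from 0.33, 0.6 and 0.54 RPKM in full to 18.5, 22.9 and 19.4 in depleted libraries. Both genes lay below 1 RPKM in every full and repleted library, as did PODNL1, ACSBG1 and C5orf27 among the 15. These genes passed the filter through the depleted libraries alone and could only be counted as rises.

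DHRS2, a short-chain dehydrogenase, had a log2 change next to that of CIB3, with 99.6, 109.8 and 110.1 RPKM in depleted and 4.67, 5.87 and 5.16 in full libraries (log2 4.11, SE 0.08). JOSD2, a deubiquitinase of the Josephin family, was the most abundant of the 15 in depleted medium, at 162, 151 and 151 RPKM against 24.8, 28.6 and 28 in full medium (log2 2.47, SE 0.08, limma adjusted p = 2.2e-08). C11orf54, whose role is less well described, had 77.1, 79.7 and 77.5 RPKM against 14.9, 10.2 and 12.6. The repleted means of DHRS2, JOSD2 and C11orf54 were 5.88 ± 0.435 RPKM, 28.2 ± 3.38 RPKM and 12 ± 1.47 RPKM, near their full levels.

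CDKN2D encodes p19, an inhibitor of the cyclin-dependent kinases CDK4 and CDK6. It rose from 3.68, 4.44 and 5.64 RPKM in the full libraries to 30.6, 29.3 and 30.1 in the depleted ones (log2 2.49, SE 0.12, limma adjusted p = 2.05e-07). PLTP, a phospholipid transfer protein, rose from 1.16 ± 0.145 to 14 ± 1.79 RPKM, and ACSBG1, an acyl-CoA synthetase, from 0.74 ± 0.234 to 9.44 ± 0.756 RPKM. Among the others were SCG3, AP3B2 and SYT11, described with the vesicle genes below, CHAC1, which degrades glutathione, and PODNL1, a leucine-rich repeat protein of the podocan family, whose depleted libraries were spread over 8.56, 7.32 and 5.18 RPKM. MIR3654 is classed as protein-coding in the table although it carries the name of a microRNA, and its 18.8 RPKM in depleted medium are named here without a product.

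Several of the 15 largest falls encode proteins of mitochondria. COQ3, a methyltransferase of coenzyme Q synthesis, had 26.4, 27.9 and 22.6 RPKM in the full and 1.72, 1.36 and 1.39 in the depleted libraries. AGK, a lipid kinase that is also part of an import complex of the inner membrane, had 46.9, 44.3 and 46.4 against 4.64, 3.7 and 4.18. TAMM41, which makes the precursor CDP-diacylglycerol for cardiolipin, had 16.2, 14.4 and 15.5 against 1.61, 0.98 and 0.79 (log2 -2.96, SE 0.12, limma adjusted p = 8.01e-08). In all 3 genes the lowest full library stood more than 8 times above the highest depleted one.

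BOLA3, which acts late in iron-sulfur cluster transfer, fell from 79.8, 81 and 82.1 RPKM to 10.6, 8.81 and 10.4 (log2 -2.91, SE 0.08). C11orf83 fell from 16.7 ± 1.41 to 1.37 ± 0.395 RPKM. It is listed under the later symbol UQCC3, an assembly factor of respiratory complex III. The repleted means of COQ3, AGK, TAMM41, BOLA3 and C11orf83 were 27.4 ± 2.71 RPKM, 45.6 ± 1.58 RPKM, 17.3 ± 0.0529 RPKM, 81.8 ± 7.23 RPKM and 19.2 ± 0.79 RPKM.

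Outside mitochondria, CDKN2AIPNL, related to a regulator of the CDKN2A product, fell 12.1-fold to 5.51, 5.15 and 5.25 RPKM. EEFSEC, the elongation factor that delivers selenocysteine, fell 15.3-fold to 1.66, 1.79 and 1.93 RPKM. MFSD3, of a superfamily of membrane transporters, fell from 35.6 ± 2.73 to 3.26 ± 0.289 RPKM, TMEM109, a membrane protein of the endoplasmic reticulum and nucleus, from 43.9 ± 1.02 to 4.82 ± 0.535 RPKM, and CNTNAP2, a neurexin-like adhesion protein, from 17 ± 0.617 to 1.45 ± 0.26 RPKM. TTC5, a tetratricopeptide protein that takes part in the autoregulation of tubulin mRNA, fell 14.7-fold and RASL10B, a small GTPase of the Ras family, 12.6-fold. Among the 15, the metallothioneins MT1X, MT2A and MT1F had repleted libraries between the depleted and the full ones, with means of 65.6 ± 7.99 RPKM, 93.5 ± 3.34 RPKM and 19.7 ± 4.07 RPKM. Metallothionein transcripts are similar to each other, so their reads may be split among them.

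**Figure D2:**
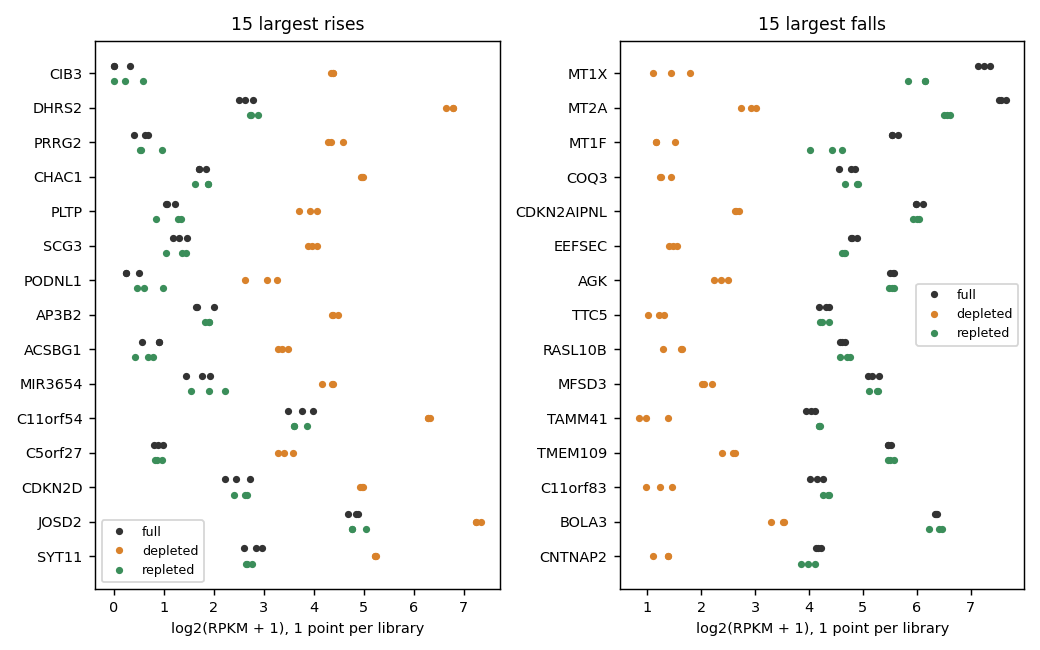
Each point is the log2(RPKM + 1) of a gene in 1 library, for the 15 largest rises (left) and falls (right), in black for full, orange for depleted and green for repleted libraries. In all 30 genes the 3 depleted libraries stand apart from the 3 full ones, which the rule that chose them required. Outside the 3 metallothioneins the repleted points lie near the full ones.

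By the number of RPKM gained or lost, other genes led. MT-CO1, the mitochondrially encoded subunit 1 of cytochrome oxidase, gained the most, from 1777, 1917 and 2099 RPKM in full to 3537, 3423 and 3389 in depleted libraries. The other 9 of the 10 largest gains were genes of cytosolic ribosomal proteins, from RPS2 (log2 0.38) to RPLP1 (log2 0.25), and all were under 1.33-fold. After quantile normalization the calls of RPS2 and RPL8 were lost, and RPS19 had a log2 change of -0.06 (limma adjusted p = 0.283), so the gains of these 3 genes depend on the scaling.

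The 10 largest losses held genes of chaperones, ribosomal proteins and other abundant products. HSPA1B, an inducible HSP70 chaperone, had 2589, 2671 and 2648 RPKM in full and 1804, 1697 and 1716 in depleted libraries, and its near-identical neighbour HSPA1A 3767, 3736 and 3821 and 3182, 3026 and 3085, so the split of reads between them is uncertain. HNRNPA1, a splicing regulator that binds nascent RNA, fell from 1638 ± 33.8 to 1071 ± 34.4 RPKM (log2 -0.61, SE 0.03). PTMA, a chromatin-associated acidic protein, fell from 1599 ± 17.4 to 1150 ± 29.7 RPKM, ACTG1, a cytoplasmic actin, from 2811 ± 37.1 to 2250 ± 24.9 RPKM, and RPL10 and RPL4, of the large ribosomal subunit, from 1545 ± 5.89 to 908 ± 35.7 RPKM and from 2367 ± 52 to 1756 ± 34.7 RPKM. NPM1, a nucleolar chaperone, fell from 2331 ± 57.6 to 1485 ± 33.1 RPKM. Each of these losses was under 2-fold.

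Short sequences before the start of genes were compared with the direction of their change, because genes that move together may share promoter motifs. RefSeq's promoter table (build GRCh38.p14) matched 9712 of the 12892 protein-coding genes by symbol, of which 32.4% rose and 34.8% fell. The 250 bases before each start were searched on both strands for 12 motifs known from the literature. The motif with the highest share of rises was the CLEAR-like E-box TCACGTGA, bound by TFEB and TFE3, which holds the plain E-box CACGTG within it. It stood before 169 genes (1.74% of the 9712 promoters), of which 93 rose and 26 fell, 55% and 15.4%, with a median log2 change of 0.23. The plain E-box stood before 884 genes (9.1%), of which 39.9% rose and 28.8% fell.

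Examples are shown on the gene's strand with the match in capitals. Here and for the motifs below they come from the 5 largest called changes in the direction of interest among genes with at least 5 RPKM in the higher group, whose match lay far enough inside the searched bases to be shown with its flanks, with 1 chromosome left out. They are TCEAL3 (chrX:103607871-103607900, plus strand), a transcription elongation factor-like gene, IGF2R (chr6:159968938-159968967, plus strand), the receptor that carries mannose 6-phosphate enzymes to lysosomes, and the Krüppel-like factor KLF15 (chr3:126357437-126357466, minus strand).
TCEAL3: tgacgcggcgcTCACGTGAcccgccgggcg
IGF2R: gcgcgctgcgcTCACGTGAcccgggcctgg
KLF15: cgcccgctgcgTCACGTGAgcggcggggag
The means went from 8.58 to 44.7 RPKM for TCEAL3, from 23.3 to 50.3 for IGF2R and from 5.18 to 11.4 for KLF15. Of listed genes, only those matched to a promoter were counted. The motif stood before 4 of 18 lysosomal membrane genes (22.2%), 4 of 26 lysosomal hydrolases (15.4%) and 2 of 15 V-ATPase subunits (13.3%). These lists had 21, 40 and 22 tested members. The motif stood before 0 of 33 autophagy genes, 0 of 20 regulators of the integrated stress response and 0 of 12 genes of amino acid synthesis, lists with 38, 21 and 20 tested members. Of the factors themselves, TFE3 and TFEB being chosen after their values were seen, TFE3 rose from 13.2 ± 1.35 to 21.6 ± 0.738 RPKM (log2 0.68, SE 0.07), and TFEB had 2.95 ± 0.548 RPKM in full and 2.41 ± 0.533 in depleted medium, which did not pass the test. MITF, of the same family, fell from 3.93 ± 0.193 to 1.63 ± 0.231 RPKM (log2 -0.91, SE 0.11).

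The cyclic AMP response element-like motif TGACGTNA, bound by factors of the ATF and CREB families, also tilted towards rises. It stood before 431 genes (4.44%), of which 46.6% rose and 22% fell. Its share climbed with the log2 change, from 0 of 74 promoters of genes that fell by at least 4-fold and 1.13% of those that fell between 2-fold and 4-fold to 8.44% and 12.9% of those that rose by the same steps, counting called genes. The core of the amino acid response element, TGATGNAA, to which ATF4 and C/EBP factors bind, stood before 132 genes (1.36%), of which 38.6% rose and 27.3% fell. It was most frequent before genes that rose by at least 4-fold, 3 of 31 (9.68%), and from 2-fold to 4-fold, 11 of 225 (4.89%). Examples are CHAC1 (chr15:40953251-40953280, plus strand), the asparagine synthetase ASNS (chr7:97872458-97872487, minus strand) and ZNF143 (chr11:9460925-9460954, plus strand), a zinc finger activator.
CHAC1: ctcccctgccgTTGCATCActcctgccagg
ASNS: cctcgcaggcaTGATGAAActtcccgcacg
ZNF143: cgtcctgtgagTGATGTAAtgacagcccaa
ASNS went from 50.9, 51.9 and 47.8 RPKM in full to 146, 156 and 152 in depleted libraries and ZNF143 from 11.3, 6.74 and 9.79 to 34, 35.7 and 33.9 (log2 1.81, SE 0.14, limma adjusted p = 4.26e-06).

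Promoters with a ZNF143 site tilted the other way. The site, whose first letters are ACTACAA, stood before 208 genes (2.14%), of which 52 rose and 106 fell, 25% and 51%, with a median log2 change of -0.19. Examples among the genes that fell are BCKDK (chr16:31108334-31108363, plus strand), the kinase that turns off breakdown of branched-chain amino acids, GTF2H4 (chr6:30908079-30908108, plus strand), a subunit of TFIIH, and PRMT6 (chr1:107056624-107056653, plus strand), an arginine methyltransferase.
BCKDK: tcagaccaaACTACAACTCCCaggacccag
GTF2H4: gtgcctttcGGGATTTGTAGTcagacgcgc
PRMT6: cgagcgcgcACTACAAGTCCCagaagcccc
BCKDK fell from 43.6 to 7.68 RPKM and GTF2H4 from 23.8 to 4.14. ZNF143 itself, as given above, rose. A match is a run of letters and not a measured binding site.

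A further word, CATTGTGGG, was picked after the data were seen because it was over-represented before genes that fell, so its share is a description of that choice. It stood before 46 genes (0.474%), of which 28 fell and 10 rose, and before 5 of the 74 genes that fell by at least 4-fold (6.76%). Among these are POFUT1 (chr20:32207728-32207756, plus strand), which adds fucose to Notch receptors, and DYNLL1 (chr12:120469708-120469736, plus strand), a light chain of dynein that went from 328, 316 and 308 RPKM to 77, 74.2 and 72.9.
POFUT1: ttgtgcggtgCATTGTGGGagccgcgcga
DYNLL1: agccgcactgCATTGTGGGaacgcggagc
The metal response element core TGCACNC stood before 898 genes (9.25%), of which 30.7% rose and 35.7% fell, near the shares of all promoters. It was more frequent before the 74 genes that fell by at least 4-fold (17.6%), among them MT1X and MT2A, whose promoters are known targets of MTF1, and EEFSEC (chr3:128153387-128153415, plus strand).
MT2A: gcccgcggcccGTGTGCAgagccgggtgc
EEFSEC: ggccggaacggGTGTGCAcagcgcgccgg
The CCAAT box stood before 3424 genes (35.3%), of which 37.8% rose and 28.9% fell. Its share was 18.9% and 23.6% in the classes of falls of at least 4-fold and from 2-fold to 4-fold, 41.1% and 41.8% among rises under 2-fold and from 2-fold to 4-fold, and 35.5% among the 31 largest rises. The GC box GGGCGG stood before 6686 (68.8%), of which 33.3% rose and 34.6% fell. The antioxidant response element core TGANNNNGC stood before 3434 genes (35.4%), of which 35.7% rose and 30.8% fell, and the metal response core with G, TGCGCNC, before 2660 (27.4%), of which 33.7% rose and 33.5% fell. The element of the endoplasmic reticulum stress response and the heat shock element stood before 12 and 29 genes (0.124% and 0.299%), too few to compare. Median GC content of the promoters was between 64% and 66.6% in all classes of called change, and 65.2% over all.

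**Figure D3:**
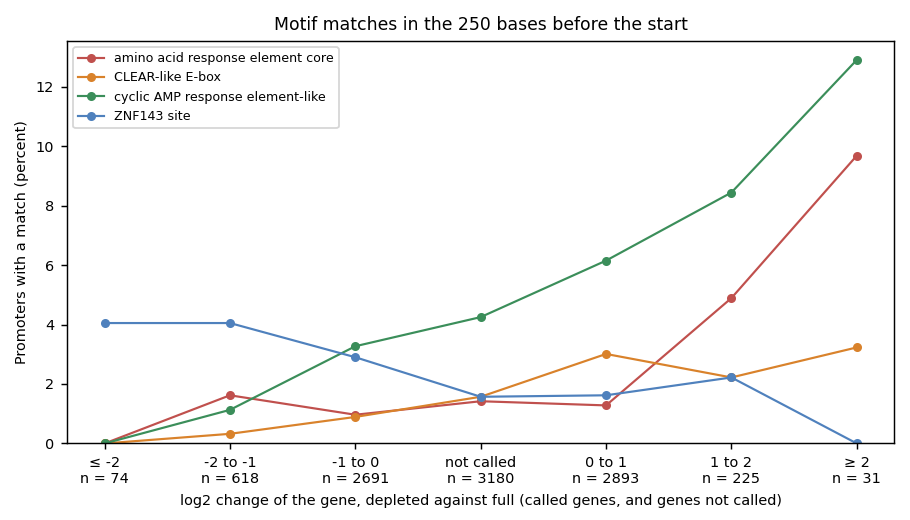
The y axis gives the percent of promoters with a match of 4 motifs, and the x axis the classes of log2 change from falls of at least 4-fold (74 promoters) to rises of at least 4-fold (31). The cyclic AMP response element-like line climbs from 0% to 12.9% and the amino acid response element core is highest at the right, while the ZNF143 site is highest among falls (4.05%).

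The gene lists that follow were read against the shares of all protein-coding genes, 31.7% that rose and 34.7% that fell. The plot of lists gives the 20 furthest from balance on either side. Lists of metallothioneins, SLC30 and SLC39 transporters, all solute carriers, reference genes and HEK293 markers were left out of it. These shares were not matched for level, and 17.3% rose in the lowest class of level against 41.5% in the highest. How far the balance of a list, above all one of low genes, goes with its level was not tested. A gene below 1 RPKM in every depleted library passed the filter through the other media and could only be counted as a fall. A gene below 1 RPKM in every full and repleted library could only be counted as a rise. Such members are part of the list counts, and apart from the HOX genes they were not counted separately. The lists were written with earlier results of these data known.

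**Figure D4:**
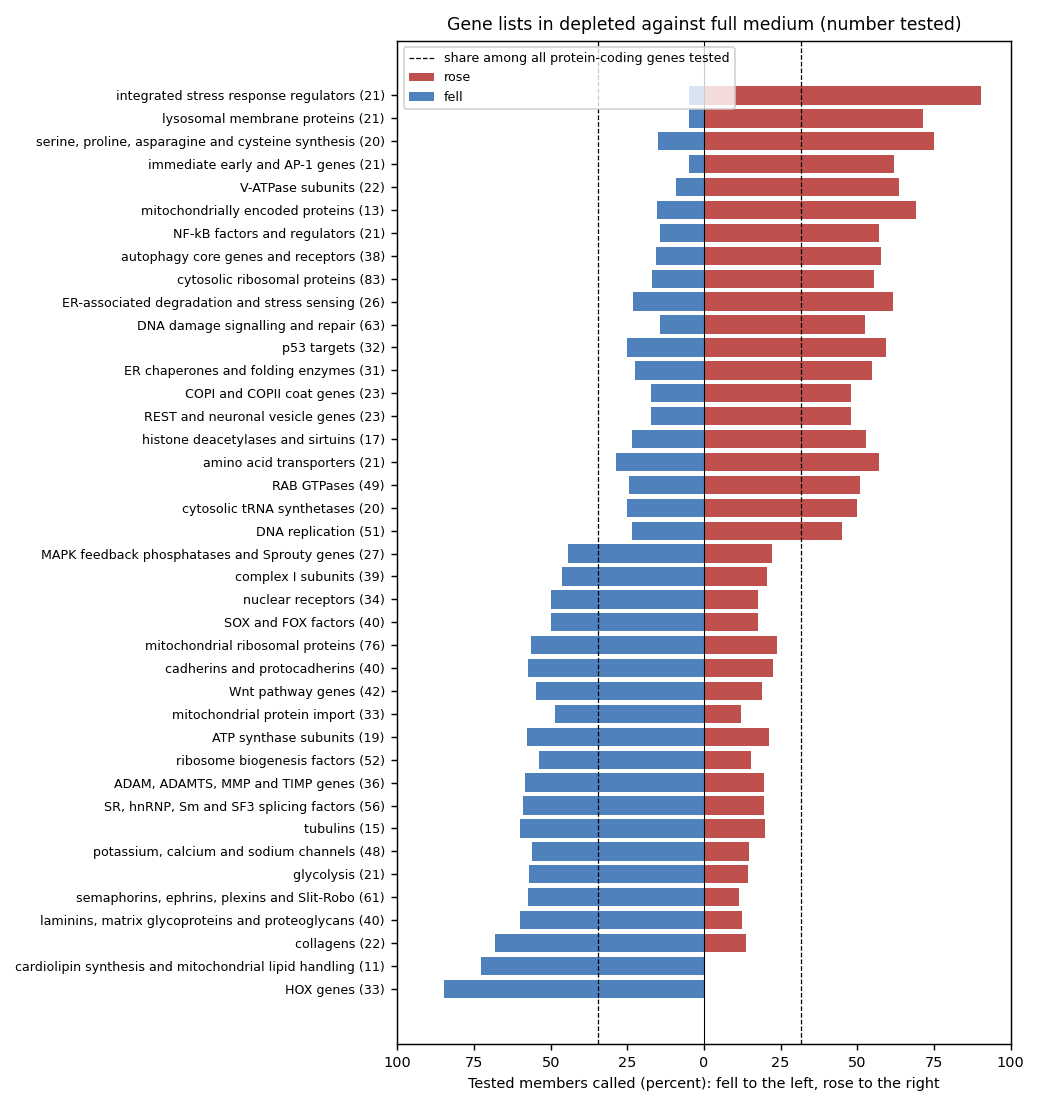
For 40 gene lists with at least 10 tested members (number in brackets), bars give the percent of members that rose (right, red) and fell (left, blue), and dashed lines the shares of all protein-coding genes (31.7% and 34.7%). Lists of zinc handling, solute carriers, reference genes and HEK293 markers were left out. Regulators of the integrated stress response lead the rises, with 19 of 21 members, and HOX genes the falls, with 28 of 33.

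Regulators of the integrated stress response rose almost as a whole. Of 21 tested, 19 rose, 11 of them at least 2-fold, and 1 fell, with a median of 1.02. CEBPG, which pairs with ATF4 on DNA, had 15.1, 13.8 and 14.2 RPKM in full and 36, 36.8 and 36.6 in depleted libraries (log2 1.29, SE 0.05). TRIB3, a pseudokinase that restrains ATF4, rose from 14.1 ± 0.327 to 31.9 ± 0.906 RPKM, DDIT4, an inhibitor of mTORC1, from 24.4 ± 0.809 to 50.7 ± 1.35 RPKM, and EIF2AK2, the eIF2 kinase activated by double-stranded RNA, from 25.4 ± 0.695 to 49.8 ± 0.241 RPKM. The exception was ATF5, a related factor, which fell from 29.7 ± 1.36 to 14.1 ± 0.89 RPKM (log2 -1.02, SE 0.06). The list was written with earlier results of these data known, so it is not independent evidence of its direction.

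Genes that make and carry amino acids mostly rose. Of 20 tested genes of serine, proline, asparagine and cysteine synthesis, 15 rose and 3 fell. SHMT2, the mitochondrial serine hydroxymethyltransferase, rose from 104 ± 1.3 to 219.5 ± 4.99 RPKM and PSAT1, of serine synthesis, from 56.5 ± 1.44 to 113 ± 3.88 RPKM. PYCR1, the last enzyme of proline synthesis in mitochondria, went the other way, from 78.4, 76.8 and 80.9 RPKM in full to 25.5, 30.3 and 27.2 in depleted libraries (log2 -1.48, SE 0.06). Of 21 transporters 12 rose and 6 fell. The glycine carrier SLC6A9 rose 4.2-fold, and SLC3A2, the heavy chain shared by several exchangers, 2.09-fold, while SLC7A8 and SLC7A2 fell by 0.80 and 0.70 on the log2 scale.

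The tRNA synthetases were split. Of 20 cytosolic enzymes 10 rose and 5 fell, and of 17 mitochondrial ones 5 and 7. The 3 cytosolic falls of at least 2-fold exceeded any cytosolic rise. VARS, for valine, had 59.3, 58.5 and 58.6 RPKM in full and 15.5, 15.1 and 15.3 in depleted libraries (log2 -1.88, SE 0.05), and FARSB and WARS, for phenylalanine and tryptophan, fell 2.18-fold and 2.07-fold. CARS, for cysteine, rose from 21.5 ± 1.86 to 38.2 ± 1.69 RPKM and TARS, for threonine, from 174 ± 7.11 to 271 ± 11.4 RPKM.

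Lysosomal genes rose more often than they fell, most evenly those of the membrane and the proton pump. Of 21 membrane proteins 15 rose and 1 fell (median 0.35), of 22 subunits of the V-ATPase proton pump 14 and 2 (median 0.32), and of 40 hydrolases 17 and 9 (median 0.07). NPC1, which exports cholesterol from lysosomes, had 26.7, 24.6 and 26.5 RPKM in full and 72.9, 79.2 and 83.4 in depleted libraries (log2 1.56, SE 0.06). CLN3, mutated in a form of Batten disease, rose from 26.6 ± 2 to 61.1 ± 6.68 RPKM. CTSH, an aminopeptidase, and GGH, a folate hydrolase, fell 4.03-fold and 2.39-fold. ATP6V1H, a regulatory subunit of the pump, rose from 19.3 ± 1.12 to 40 ± 2.86 RPKM, the largest rise of its list.

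Autophagy genes rose more often than they fell (22 and 6 of 38, median 0.26). GABARAPL1, an ATG8 protein of autophagosomes, rose from 22.9 ± 1.57 to 52.4 ± 3.1 RPKM, BNIP3L, a receptor for mitophagy, from 21.5 ± 0.235 to 40.8 ± 1.56 RPKM, and OPTN, another receptor, from 19.1 ± 0.796 to 32.5 ± 1.47 RPKM. AMBRA1, a regulator of autophagy initiation, fell from 13.9 ± 0.898 to 5.54 ± 0.208 RPKM (log2 -1.19, SE 0.08). Among 35 genes of mTORC1, the growth kinase complex of the lysosome, 18 rose and 13 fell. NPRL3, a subunit of its inhibitor GATOR1, rose 2.4-fold, and the activator RHEB rose from 126 ± 4.14 to 193 ± 3.73 RPKM, so an inhibitor and an activator both rose.

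The secretory pathway moved in parts. Of 26 genes of degradation and stress sensing at the endoplasmic reticulum (ER) 16 rose and 6 fell, and of 31 chaperones and folding enzymes 17 and 7. FKBP2, a prolyl isomerase, rose 2.26-fold and ERP29, an escort of secretory proteins, 1.76-fold. DNAJC10, a disulfide reductase, had 49.5, 47 and 45.5 RPKM in full and 14.6, 13.6 and 15.6 in depleted libraries (log2 -1.63, SE 0.06). ATF6, a membrane-bound stress sensor, fell from 9.63 ± 0.901 to 4.94 ± 0.895 RPKM and MBTPS2, a zinc metalloprotease that cuts ATF6, from 16.5 ± 0.827 to 7.61 ± 0.336 RPKM. Coat genes of COPI and COPII vesicles gave 11 rises and 4 falls of 23, and N-glycosylation and translocon genes 12 and 13 of 38, close to all protein-coding genes.

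RAB GTPases, switches of membrane traffic, rose in 25 of 49 and fell in 12. RAB4B, of recycling endosomes, had 11.2, 10.6 and 5.99 RPKM in full and 48.9, 45.3 and 45.7 in depleted libraries, 5.02-fold higher. A neighbour shares its reads in readthrough transcripts, so its level is uncertain. RAB39A and RAB39B, linked to phagosomes and neuronal vesicles, rose from 6.07 ± 0.509 to 17 ± 0.974 RPKM and from 1.39 ± 0.22 to 4.82 ± 0.215 RPKM. RAB15 and RAB3D fell 3.63-fold and 3.93-fold, so paralogues of 1 family moved in both directions.

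Protein folding and turnover outside the ER held no common direction. Cytosolic heat shock and cochaperone genes gave 15 rises and 11 falls of 34, the chaperonin and prefoldin 5 and 5 of 14, and the proteasome 16 and 10 of 35. Single subunits of large complexes fell apart from their partners. CCT7 had 403, 392 and 389.8 RPKM in full and 148, 151 and 145 in depleted libraries, while TCP1, another subunit of the same ring, rose from 400.1 ± 6.59 to 596 ± 3.72 RPKM. PSMD3, a lid subunit of the proteasome, had 171, 169.8 and 174 and 66, 70.5 and 68.2 RPKM, while PSMD8, of the same lid, rose from 228 ± 1.92 to 282 ± 3.55 RPKM.

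Ubiquitin enzymes differed by list, with more rises than falls among cullins and their adaptors. Cullins and their KLHL, FBXO and FBXL adaptors rose in 33 of 79 and fell in 16, among them KLHL24, up from 5.08 ± 0.345 to 16.4 ± 1.23 RPKM, and CUL1, the scaffold of SCF ligases, down from 57.5 ± 1.39 to 32.4 ± 0.711 RPKM. Conjugating enzymes gave 9 rises and 13 falls of 34, and USP deubiquitinases 12 and 15 of 47. RNF187, a RING ligase linked to AP-1, fell the most of 67 RNF genes, from 139, 138 and 128 RPKM in full to 24.4, 25.5 and 19.9 in depleted libraries (log2 -2.49, SE 0.08).

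Nuclear genes for mitochondrial translation and protein import fell more often than they rose. Of 76 mitochondrial ribosomal proteins 43 fell and 18 rose (median -0.22), and 8 of the falls were at least 2-fold. MRPL54 had 53, 55.6 and 59.6 RPKM in full and 5.86, 8.71 and 6.15 in depleted libraries (log2 -2.87, SE 0.12), MRPL40 fell 4.36-fold and MRPS26 3.62-fold. MRPS36 and MRPS7 rose, from 48.3 ± 2.16 to 80.8 ± 2.36 RPKM and from 105 ± 2.23 to 163 ± 0.826 RPKM. Import genes fell in 16 of 33 and rose in 4. TIMM9, a small carrier chaperone of the intermembrane space, had 62, 53.6 and 58.3 against 13.5, 12.5 and 11.1 RPKM, and GRPEL2, a cochaperone of the import motor, rose from 15.3 ± 0.177 to 30.5 ± 1.23 RPKM.

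Genes of cardiolipin synthesis and mitochondrial lipid handling were the mitochondrial list furthest from balance. Of 11 tested, 8 fell and 0 rose (median -0.52). The list was written with earlier results of these data known and holds AGK and TAMM41, so its balance is not independent evidence. Beside AGK and TAMM41, the remodelling acyltransferase TAZ had 15.1, 19.6 and 16 RPKM in full and 3.87, 3.14 and 3.04 in depleted libraries (log2 -2.04, SE 0.11). CRLS1, the cardiolipin synthase, fell from 40.2 ± 1.09 to 25.1 ± 1.1 RPKM and PHB, a scaffold of the inner membrane, from 323 ± 0.663 to 225 ± 3.61 RPKM.

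Respiratory chain genes differed by complex. The nuclear ATP synthase subunits fell in 11 of 19 and rose in 4, with ATP5D, the delta subunit, lower, from 111 ± 2.52 to 49 ± 2.32 RPKM. Complex I subunits fell in 18 of 39 and rose in 8, but their median change of -0.02 became 0.03 after median centring. NDUFC2 had 309.6, 318 and 318 RPKM in full and 107, 106 and 95.1 in depleted libraries, NDUFS4 fell 3.09-fold, and NDUFS1, the largest subunit, rose from 43.4 ± 0.381 to 61.4 ± 2.99 RPKM. Complexes II to IV were even, with 9 rises and 9 falls of 25. In contrast, 9 of 13 mitochondrially encoded proteins rose, and MT-ATP6 and MT-ATP8 fell, each by 0.25 on the log2 scale.

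In the citric acid cycle 11 of 23 genes rose and 7 fell, and the falls were the larger. MDH1, the cytosolic malate dehydrogenase, had 178, 163 and 160.1 RPKM in full and 60.5, 59 and 57.2 in depleted libraries, and SUCLG1 and SUCLG2, 2 subunits of succinyl-CoA ligase, fell 2.61-fold and 2.51-fold. PCK2, the mitochondrial carboxykinase, rose from 12.9 ± 0.881 to 24.8 ± 1.53 RPKM. Around pyruvate dehydrogenase, LIAS, which makes lipoic acid, rose 2.64-fold. Among SLC25 carriers of the inner membrane, SLC25A48 and SLC25A23 fell 8.29-fold and 4.47-fold, although 18 of 42 rose and 12 fell.

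Carbon and lipid metabolism varied by pathway. In glycolysis and glucose uptake 12 of 21 genes fell and 3 rose, and the 2 uptake carriers parted: SLC2A3 had 11, 10 and 9.18 RPKM in full and 1.63, 2.62 and 1.65 in depleted libraries, and SLC2A1 rose from 41.5 ± 2.13 to 71 ± 1.92 RPKM. Fatty acid synthesis (6 rose, 7 fell of 16), fatty acid oxidation (8 and 9 of 23) and cholesterol synthesis (11 and 9 of 27) were mixed. The desaturase FADS2 fell from 77.7 ± 0.787 to 40 ± 0.784 RPKM, while the regulators SREBF1 and SREBF2 rose from 11 ± 1.71 to 19.9 ± 1.32 RPKM and from 46.6 ± 1.67 to 74.1 ± 0.751 RPKM. Nucleotide synthesis fell in 14 and rose in 8 of 31. NME1, a nucleoside diphosphate kinase, fell 2.81-fold, and RRM1 and RRM2, the subunits of ribonucleotide reductase, rose by 0.40 and 0.46 on the log2 scale.

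Redox genes were mixed, with large single changes. Of 37 genes of the glutathione and thioredoxin systems 14 rose and 12 fell. The mitochondrial thioredoxin reductase TXNRD2 had 26, 24.8 and 27.7 RPKM in full and 6.97, 6.17 and 6.57 in depleted libraries, while the cytosolic TXNRD1 rose from 104 ± 2.73 to 172 ± 0.879 RPKM. SRXN1, sulfiredoxin, rose 2.65-fold, and GLRX, glutaredoxin, fell 3.77-fold. Heme synthesis fell in 4 of 8 and rose in 1, with CPOX down from 43.5 ± 1.64 to 23.4 ± 0.388 RPKM.

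Genes of RNA processing fell more often than they rose. Of 56 splicing factors 33 fell and 11 rose (median -0.17). SNRPD3, a core protein of spliceosomal snRNPs, had 268, 263 and 263 RPKM in full and 86.9, 90.9 and 89.1 in depleted libraries (log2 -1.56, SE 0.03). HNRNPA2B1 fell from 1024 ± 32.3 to 692 ± 14.7 RPKM and SRSF3 from 227 ± 7.71 to 151 ± 3.13 RPKM, while U2AF1L4 rose from 8.65 ± 2.15 to 21.8 ± 1.03 RPKM. Ribosome biogenesis factors fell in 28 of 52 and rose in 8, with WDR75, of the early nucleolar complex, from 34.2, 33.9 and 35.1 to 9.98, 9.92 and 9.59 RPKM.

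Other parts of gene expression differed among themselves. RNA polymerase subunits gave 11 rises and 11 falls of 30, with POLR3G, of polymerase III, from 18.7 ± 0.161 to 3.63 ± 0.371 RPKM. Translation factors rose in 25 of 54 and fell in 18. EIF1 and EIF5, which act in start codon selection, rose 1.76-fold and 1.89-fold. Nucleoporins gave 11 and 9 of 31, and NUP205 and NDC1 fell 5.42-fold and 3.68-fold. ZNF genes rose in 120 and fell in 96 of 399, fewer calls than among all protein-coding genes in either direction, with ZNF32 from 14.9 ± 0.982 to 2.31 ± 0.612 RPKM the largest fall. Of 17 histone deacetylases and sirtuins 9 rose and 4 fell. HDAC8 had the largest change, a fall from 21.8 ± 2.07 to 2.81 ± 0.568 RPKM, and HDAC7 fell from 13.4 ± 1.2 to 7.61 ± 0.686 RPKM. SIRT6, a zinc-binding sirtuin, rose from 13.4 ± 0.878 to 34.6 ± 1.86 RPKM and HDAC6 from 24 ± 0.545 to 46.6 ± 4.3 RPKM. Nuclear receptors fell in 17 of 34 and rose in 6, with the vitamin D receptor VDR down from 2.8 ± 0.178 to 1.25 ± 0.125 RPKM.

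Repair genes rose more often than they fell, and cell division genes were mixed. Of 63 genes of DNA damage signalling and repair 33 rose and 9 fell (median 0.23). OGG1, which removes oxidised guanine, had 22.6, 21.8 and 17.5 RPKM in full and 52.9, 46 and 50 in depleted libraries (log2 1.23, SE 0.10). XRCC4, of end joining, rose from 11.2 ± 0.155 to 20.1 ± 0.833 RPKM and MRE11A, a nuclease at double-strand breaks, from 20.6 ± 1.26 to 34.2 ± 0.409 RPKM, while NBN, its partner, fell from 18.1 ± 1.18 to 8.67 ± 0.654 RPKM. DNA replication genes rose in 23 of 51 and fell in 12, with POLD2, a subunit of polymerase delta, down from 154 ± 3.72 to 65.1 ± 1.26 RPKM. Mitosis genes gave 17 rises and 23 falls of 53.

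Regulators of G1 included large single changes. CCND1, cyclin D1, had 29.6, 30 and 28.3 RPKM in full and 5.66, 5.28 and 6.42 in depleted libraries (log2 -2.16, SE 0.07, limma adjusted p = 1.55e-08). Its relatives CCND2 and CCND3 fell from 13 ± 0.582 to 8.6 ± 0.642 RPKM and from 36 ± 1.93 to 23 ± 0.505 RPKM, and its partner CDK6 from 17.5 ± 1.15 to 9.12 ± 0.889 RPKM. CCNE1 and CCNE2, the E-type cyclins, rose from 27.8 ± 1.86 to 40.7 ± 0.956 RPKM and from 12 ± 1.46 to 18.6 ± 0.866 RPKM. E2F1, a factor held back by RB1, rose by 0.48 and E2F5, a repressive relative, fell by 0.87 on the log2 scale, and RB1 rose while its relatives RBL1 and RBL2 fell (log2 0.63, -1.06 and -0.61).

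Among p53 targets 19 of 32 rose and 8 fell (median 0.36). TP53INP1, which promotes p53 activity, had 2.21, 2.14 and 2.5 RPKM in full and 8.4, 8.47 and 8.37 in depleted libraries, and CCNG2, an atypical cyclin, rose 2.37-fold. TP53I3, a quinone oxidoreductase, fell from 7.55 ± 0.261 to 3.04 ± 0.247 RPKM. In the BCL2 family 7 of 17 rose and 4 fell, with BBC3, also named PUMA, up from 14.9 ± 1.04 to 25.6 ± 1.18 RPKM and BID down from 39.8 ± 0.0569 to 20 ± 0.506 RPKM.

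Immediate early genes rose in 13 of 21 and fell in 1 (median 0.65). CTGF, a secreted matrix protein controlled by YAP, had 0.82, 0.39 and 1.03 RPKM in full and 5.26, 4.98 and 4.8 in depleted libraries, and EGR1, a zinc finger factor, 2.03, 2.08 and 2.24 and 5.73, 6.23 and 5.95. MAFG, a small MAF partner, rose from 13.9 ± 0.329 to 29.1 ± 2.37 RPKM. KLF10 rose from 4.07 ± 0.243 to 11.3 ± 0.762 RPKM and KLF11, its close relative, fell from 7.04 ± 0.416 to 1.47 ± 0.101 RPKM. NF-kB factors and regulators rose in 12 of 21 and fell in 3, with TNFAIP3, which dampens the pathway, up from 1.36 ± 0.327 to 3.78 ± 0.0866 RPKM. All of these low genes lay under 10 RPKM in full medium except MAFG.

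Genes of MAPK feedback and of the Wnt pathway fell more often than they rose. MAPK feedback genes fell in 12 of 27 and rose in 6. ETV4, an ETS factor downstream of ERK, had 8.8, 7.93 and 8.6 RPKM in full and 0.53, 0.64 and 0.57 in depleted libraries (log2 -2.58, SE 0.11), and the phosphatase DUSP9 fell 4.79-fold. With every depleted library below 1 RPKM, ETV4 could only be counted as a fall. Wnt genes fell in 23 of 42 and rose in 8 (median -0.27). The ligand WNT11 fell from 8.9 ± 1.47 to 2.11 ± 0.0624 RPKM, the secreted inhibitor SFRP1 from 8.61 ± 0.596 to 3 ± 0.206 RPKM and CTNNB1, beta-catenin, from 239, 238 and 239.8 RPKM in full to 127, 135 and 132 in depleted libraries. The receptor FZD5 rose from 4.12 ± 0.259 to 8.43 ± 0.54 RPKM.

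TGF-beta and BMP genes gave 14 rises and 20 falls of 53. INHBE, a ligand of the inhibin family, had 0.59, 0.72 and 0.96 RPKM in full and 5.88, 6.36 and 6.62 in depleted libraries, and GDF15, a stress-induced ligand, rose from 1.6 ± 0.167 to 6.75 ± 1.09 RPKM. TGFB1 fell from 31.2 ± 3.88 to 12.4 ± 1.59 RPKM. In the Notch pathway 9 of 27 rose and 10 fell, with a median of -0.10 that became 0.01 after a filter at a mean of 5 RPKM. The receptors NOTCH1 and NOTCH2 fell from 3.85 ± 0.643 to 1.57 ± 0.01 RPKM and from 22 ± 2.01 to 9.39 ± 0.121 RPKM, the ligand JAG2 from 12.3 ± 1.33 to 5.07 ± 0.722 RPKM, and the target HEY2 rose from 4.87 ± 0.21 to 11.7 ± 0.665 RPKM.

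HOX genes, which mark position along the body axis and are kept on in HEK293 cells, moved in 1 direction. In all, 33 of the 39 genes passed the filter on low values, of which 28 fell and 0 rose (median -0.54). The other 5 did not pass the test. HOXB5, HOXC8, HOXC11 and HOXD4 lay below 1 RPKM in every depleted library. They passed the filter through the full and repleted libraries alone and could only be counted as falls. HOXD13 had 13.2, 12.8 and 13.1 RPKM in full libraries and 5.6, 5.58 and 5.51 in depleted ones (log2 -1.10, SE 0.06, limma adjusted p = 4.4e-07). HOXB9, the highest of the 33 in full medium, had 22.4, 21.9 and 22.6 against 15.1, 14 and 14. HOXC8, which could only be counted as a fall, had 3.92, 3.95 and 3.57 against 0.96, 0.94 and 0.86. For HOXD13 and HOXB9 the groups did not overlap, as was the case for 72.9% of all protein-coding genes.

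The falls covered all 4 HOX clusters. By cluster, 8 of 10 tested HOXA genes, 8 of 9 HOXB, 7 of 7 HOXC and 5 of 7 HOXD genes fell. These counts include HOXB5, HOXC8, HOXC11 and HOXD4, which could only be counted as falls. The median over the 33 genes was 6.45, 6.8 and 6.39 RPKM in the full libraries and 3.9, 3.5 and 3.4 in the depleted ones. After repletion it was 6.07, 6.43 and 5.8 RPKM, near the full libraries. HOX genes are clustered and their transcripts overlap, and strand use in the counting is not given in the sources used here, so neighbours are not independent. HOXA9, chosen after its values were seen, had a mean of 14.7 RPKM in both media, while its neighbours HOXA7 and HOXA10 fell.

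**Figure D5:**
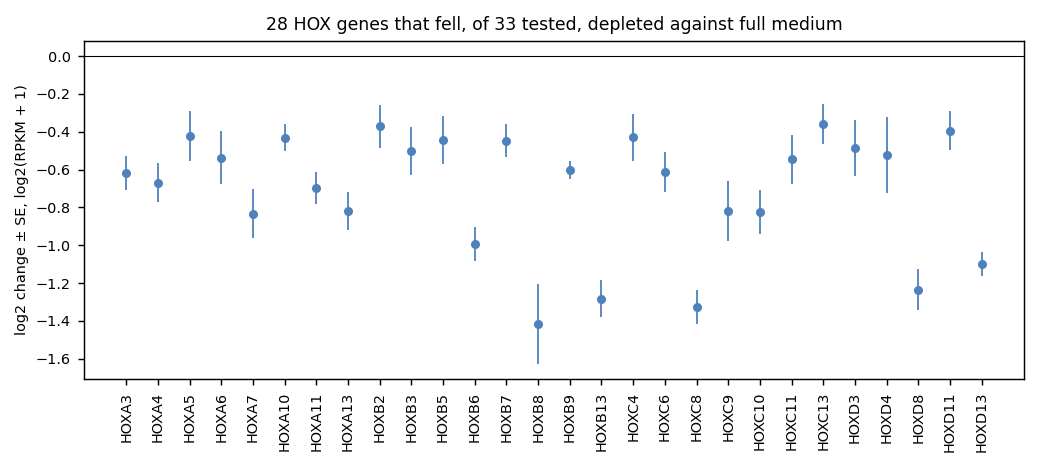
Each point is the log2 change, with its SE, of 1 of the 28 HOX genes that fell, ordered by cluster and number. They lie between -0.36 and -1.42, and the 5 tested genes that were not called are not drawn. HOXB5, HOXC8, HOXC11 and HOXD4 could only be counted as falls.

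Surface, guidance and channel genes of the nervous system and of epithelia mostly fell. Of 61 semaphorins, ephrins, plexins and Slit-Robo genes, which steer growing axons and cells, 35 fell and 7 rose (median -0.37). EFNB3, a membrane-bound ephrin, had 5.11, 5.27 and 4.67 RPKM in full and 0.22, 0.33 and 0.27 in depleted libraries (log2 -2.24, SE 0.11), and SEMA6B fell from 6.2 ± 0.692 to 0.863 ± 0.131 RPKM. With every depleted library below 1 RPKM, EFNB3 could only be counted as a fall. SEMA4D rose from 6.59, 6.95 and 6.83 to 19.7, 19.1 and 21.6 RPKM. Of 48 tested potassium, calcium and sodium channel genes of 135 in the table, 27 fell and 7 rose (median -0.46), with KCNG1 down from 6.85 ± 0.43 to 1.42 ± 0.327 RPKM.

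Cadherins and protocadherins fell in 23 of 40 and rose in 9 (median -0.48). CDH24 had 8.3, 8.92 and 7.99 RPKM in full and 1.46, 1.19 and 1.61 in depleted libraries, while CELSR3, a flamingo cadherin, rose from 1.52 ± 0.52 to 8.14 ± 0.444 RPKM and its relative CELSR2 fell from 7.38 ± 0.719 to 2.59 ± 0.165 RPKM. Of 15 integrins 6 fell and 4 rose, with a median of -0.11 that became 0.01 after quantile normalization. ITGA6, ITGA3 and ITGA4 fell 2.92-fold, 3.46-fold and 3.22-fold, and ITGB1, the shared beta chain, rose from 85.6 ± 0.581 to 121 ± 4.19 RPKM.

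Matrix genes fell more often than they rose. Collagens gave 15 falls and 3 rises of 22, and COL2A1, of cartilage, the most abundant of those named, had 100, 104 and 104 RPKM in full and 31, 30.3 and 32.8 in depleted libraries (log2 -1.68, SE 0.04). Laminins, glycoproteins and proteoglycans fell in 24 of 40, 11 of them at least 2-fold, and rose in 5. EFEMP1, a fibulin, fell from 9.22 ± 0.924 to 0.75 ± 0.05 RPKM, and the syndecans parted, with SDC1 down from 16.1 ± 1.2 to 3.58 ± 0.556 RPKM and SDC4 up from 8.63 ± 0.22 to 21.2 ± 1.51 RPKM. With every depleted library below 1 RPKM, EFEMP1 could only be counted as a fall. ADAM, ADAMTS, MMP and TIMP genes, most of which encode zinc proteases, fell in 21 of 36 and rose in 7. MMP15 fell from 8.32 ± 0.318 to 1.48 ± 0.201 RPKM and the inhibitor TIMP2 from 21.2 ± 0.227 to 8.36 ± 0.271 RPKM.

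Cytoskeletal families differed. Tubulins fell in 9 of 15 and rose in 3, with TUBB2B down from 194 ± 3.15 to 117 ± 6.68 RPKM and TUBB3, of neurons, up from 21.4 ± 1.32 to 34.8 ± 1.83 RPKM. Actin and myosin genes gave 12 rises and 15 falls of 31, and kinesins and dyneins 15 and 16 of 48.

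Against the falls of other neural surface genes, the tested genes of secretory and synaptic vesicles rose more often than they fell. Of 37 genes of REST, a repressor of neuronal genes, and of neuronal vesicles, 23 passed the filter on low values. Among these 23, 11 rose, 8 of them at least 2-fold, and 4 fell. A gene near 0 RPKM in full medium could pass through its depleted libraries and then be counted only as a rise. SCG3, a granin of dense-core granules, had 1.46, 1.77 and 1.29 RPKM in full and 13.8, 15.7 and 14.6 in depleted libraries. AP3B2, the neuronal subunit of the adaptor AP-3, had 3.02, 2.12 and 2.18 and 19.9, 21.5 and 19.8, and SYT11, a synaptotagmin, 6.22, 5.11 and 6.77 and 36.6, 36.2 and 36.9. All 3 are among the 15 largest rises, chosen for separate groups. Their depleted libraries lay above 13 RPKM and the full ones below 7.

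SYP, synaptophysin, rose from 6.21 ± 0.389 to 28.6 ± 0.598 RPKM, CHGB, another granin, from 2.09 ± 0.182 to 11.6 ± 0.239 RPKM, and SNAP25, of the fusion machinery, from 0.72 ± 0.168 to 6.2 ± 0.484 RPKM. GAP43, a growth cone protein, fell from 4.15 ± 0.439 to 1.81 ± 0.0666 RPKM. SOX and FOX factors fell in 20 of 40 and rose in 7. FOXF2, of mesenchyme, fell from 17 ± 0.335 to 6.99 ± 0.705 RPKM and SOX9 rose from 10.9 ± 0.32 to 23.7 ± 0.673 RPKM. Of 194 solute carriers 69 rose and 73 fell, near the shares of all protein-coding genes, with SLC41A3, related to magnesium carriers, from 18.3, 18.1 and 17.5 RPKM in full to 77.3, 78.2 and 83.9 in depleted libraries (log2 2.09, SE 0.05).

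Iron-sulfur cluster, selenoprotein and copper genes held rises and falls in like numbers, with single genes that moved far. In iron-sulfur cluster assembly 9 rose and 8 fell of 21. FAM96A, of the cytosolic targeting complex, fell from 53 ± 3.35 to 25 ± 0.37 RPKM, and NUBP1, a cytosolic scaffold, rose from 17.5 ± 1.28 to 30.6 ± 2.1 RPKM. Among selenoproteins and their machinery 10 of 22 rose and 7 fell, and GPX4, which reduces lipid peroxides, rose from 226 ± 5.77 to 357 ± 3.49 RPKM while EEFSEC fell. In copper handling 3 of 12 rose and 3 fell, with COMMD1 from 25.9, 29.9 and 20.5 RPKM in full to 9.81, 11.4 and 11.4 in depleted libraries.

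CCCH zinc finger genes, which bind RNA, rose in 16 of 34 and fell in 9. ZC3H8 had 12.2, 13.1 and 13.8 RPKM in full and 40.7, 40.6 and 36.3 in depleted libraries (log2 1.52, SE 0.06), and CPSF4, of the polyadenylation complex, fell from 34.5 ± 1.38 to 16.8 ± 0.547 RPKM. Histone lysine methyltransferases and demethylases rose in 23 of 55 and fell in 14, with KDM1A down from 104 ± 2.49 to 61.6 ± 3.2 RPKM and KDM1B, its paralogue, up from 20 ± 1.6 to 34 ± 3.19 RPKM. Of 35 interferon and antiviral genes 10 rose and 10 fell, with TMEM173, also named STING, down from 21.2 ± 2.1 to 12 ± 0.572 RPKM. Among caspases and inhibitors of apoptosis 10 of 20 rose and 7 fell. XIAP, an inhibitor of caspases, rose from 11.2 ± 1.92 to 20.8 ± 0.35 RPKM, and CYCS, cytochrome c, fell from 234 ± 7.53 to 157 ± 1.82 RPKM.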

How the data were processed

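Polyadenylated RNA of 9 libraries, 3 per medium, was sequenced from single ends. The authors deposited a table of log2 of RPKM plus 1 per gene, per the file headers, on Ensembl identifiers. Per the submitters' processing notes, bedtools 2.25.0.3, BWA 0.7.12-r1039, RSEM 1.2.6 and Bowtie 1.0.1 and the builds hg19 and GRCh37 were named, with no role or order. Whether counting used strand is not given in the sources used here, and 20320 blank rows name no gene and were left out.

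Here limma 3.58.1 in R 4.3.3 was fitted to the log2 values with a variance trend and 1 mean per group over all 9 libraries. The filter was 1 RPKM in 3 libraries, the pseudocount 1, the threshold an adjusted p of 0.05 over 15774 genes. No read counts were used. Depth was estimated from the steps between low values, of which 58.8% to 66.0% were whole numbers of reads within 0.1 read, so no interval or count test rests on it, and the number of replicates limits precision. The model was tested on simulated data.

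Named genes were the 15 largest rises and falls of called protein-coding genes with non-overlapping libraries and at least 5 RPKM in the higher group, the 10 largest gains and losses in RPKM, up to 6 members of each gene list by p, 2 that moved most against the list's majority, and all members of the lists of KLF factors, of MYC, cyclins and G1 control, and of reference genes. The marker genes, the genes shown with promoter motifs, TFE3, TFEB and the HOX genes other than HOXB6, HOXB9, HOXB13, HOXC8, HOXD8 and HOXD13 were named outside this rule. The members and lists were chosen with earlier results of these data known, and 10 list patterns were narrowed after member values had been seen. Some items are not reported here. Lists are described by counts and medians, with no list test. Promoter motifs were searched in the RefSeq table of GRCh38.p14, a later build than the deposited values, so genes were matched by symbol and no coordinate was transferred. The 40 bases after the start began a transcript of the GENCODE annotation for 1259 of 4955 plus-strand and 1235 of 4757 minus-strand promoters. The start used may therefore differ from that of other annotations. Alternatives were a pseudocount of 0.1, no filter, a mean of at least 5 RPKM, the 6 libraries alone, median centring, quantile normalization, a replicate block, a threshold of 0.01, protein-coding genes alone and each full or depleted library left out. Python 3.11.15 with matplotlib 3.10.9 made the plots.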

Additional observations from a re-analysis of the deposited data

How the results depend on the processing

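The direction and call of most named genes held over 15 alternatives, while the balance of rises and falls depended on the scaling. Genes called numbered 9611, against 9511 with the replicate number as a block, 9702 with the 6 libraries alone and 8780 to 8933 with 1 full or depleted library left out. The replicate numbers did not pair the samples, since deviations of same-numbered libraries from their group means correlated at 0.025, -0.014 and 0.009. A threshold of 0.01 left 7604. Median centring gave 5186 higher and 4498 lower and quantile normalization 5062 and 4538, against 4693 and 4918. For protein-coding genes they gave 4515 and 4099, and 4330 and 4178, against 4090 and 4472. In both settings the excess of falls became an excess of rises. Of 1455 list medians over the settings, 138 moved by more than the spread between libraries without a reversal. The count of protein-coding rises of at least 2-fold was 534 with a pseudocount of 0.1 and 222 after a filter at 5 RPKM on the mean, against 353, and of falls 1472 with a pseudocount of 0.1, against 959, since the pseudocount sets the fold of low genes and the filter removes them. Of 97 lists, 14 had a median log2 change that changed sign or came to 0 in at least 1 setting. In 5 of them the median had been at least as large as the spread between libraries: USP deubiquitinases (0.023) and integrins (0.007) after quantile normalization, hypoxia genes (0.000) after median centring, and, after the filter at 5 RPKM, iron genes (0.026) and Notch genes (0.010). RPS19 turned to -0.060 after quantile normalization. Of 695 named called genes, 26 lost the call in at least 1 setting. The cause of these changes of sign and call was not tested. With 3 libraries per group, changes smaller than the spread between libraries were not detectable, and the depth behind each value is an estimate.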

Other observations

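Classes of genes other than protein-coding had fewer calls. Among genes of all classes 29.8% rose and 31.2% fell, and each class given here had a smaller share in either direction. Of 741 tested pseudogenes 180 rose and 81 fell (median log2 0.11), of 765 antisense genes 174 rose and 144 fell (0.07), and of 622 long intergenic RNAs 150 rose and 143 fell (0.04). Pseudogenes share sequence with their parent genes, and antisense genes overlap others, so reads may be shared between them, which was not tested. Among 238 short microRNA genes 16 rose and 8 fell, and among 121 small nucleolar RNA genes 9 rose and 6 fell. The libraries were of polyadenylated RNA, and what their reads measure of these short classes was not tested.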
